A study of Homo sapiens with 12 samples.

Results

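ML210 was compared with control treatment in the libraries labelled SK-N-BE(2), a human neuroblastoma cell line. The comparison takes the 3 ML210 libraries and the 3 control libraries that carry this line label, 6 of the 12 libraries of the series, and each ML210 library shares a batch label from 1 to 3 with 1 control. Both groups are wild type by label, were cultured overnight and differ in the label ML210 or Control, with no vehicle or dose named. The other 6 libraries, labelled SK-N-AS, have the same layout and entered the fit as a source of spread. RNA from the cultures was read by stranded mRNA sequencing on an Illumina NovaSeq. A library is called by group and batch, so that ML210 3 is the ML210 library of batch 3. Nothing beyond the batch label says that the 3 libraries of a group came from separate cultures, and the p-values speak only of the spread among these libraries, which may be technical.

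ML210 binds covalently to GPX4, the selenoenzyme that reduces phospholipid hydroperoxides in membranes. When GPX4 fails, iron-driven lipid peroxidation can kill the cell by ferroptosis, which glutathione, the quinone reductase FSP1 and iron storage in ferritin hold back. Oxidants and electrophiles also release the transcription factor NRF2 from its inhibitor KEAP1, and NRF2 paired with a small MAF protein turns on genes of glutathione, thioredoxin, NADPH and iron handling. Neuroblastoma cells of the adrenergic state express sympathetic factors such as HAND2 and GATA3, and the mesenchymal state is marked by genes such as PRRX1 and VIM.

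The 6 libraries held 57990008 to 67177805 counted reads each. MYCN, the gene whose amplification the design ascribes to SK-N-BE(2), had 12, 16 and 6 reads in controls 1, 2 and 3 and 4, 10 and 17 reads in ML210 1, 2 and 3, against 198592 to 268019 reads in each library labelled SK-N-AS. MYCN therefore runs against the line label in all 12 libraries, and the labels are used here as deposited. The adrenergic markers HAND2, GATA3, PHOX2A and ISL1 were present at 30.96 CPM or more in every library, where CPM is a gene's reads divided by the normalised total of its library and put on a fixed common scale, while tyrosine hydroxylase TH lay at 0.0607 to 0.607 CPM. The mesenchymal markers PRRX1, VIM, FN1, CD44 and YAP1 were also present, at 57.02 CPM or more in every library. Of markers of other cells, endothelial genes summed to 2.6 to 4.59 CPM. The blood list was carried by PTPRC alone, at 162 to 329 CPM, with CD3E, MS4A1, HBB and HBA1 at 0 reads. The fibroblast list summed to 3189 to 4348 CPM, with COL1A1, COL3A1, DCN and LUM as its most abundant members, while COL1A2 had 0 to 17 reads per library. The epithelial list summed to 192 to 296 CPM, almost all from KRT8, KRT18 and CLDN4. The Schwann list, carried by PMP22 with SOX10 at 0 to 4 reads, summed to 48.97 to 49.7 CPM in controls and 52.5 to 57.1 CPM with ML210, without overlap. The other 4 sums overlapped between the groups, and 0 marker genes were called by edgeR without the batch block described below. At an unadjusted p under 0.05, TEK, CLDN4 and S100B were among those that passed, DESeq2 called 1 epithelial marker higher, and with the block CLDN4 was higher and KDR, KRT8 and FAP were lower. The part of other cells in the results was not tested. Mitochondrial transcripts took 1.94 to 2.27% of the reads in controls and 2.02 to 2.73% with ML210. In bulk samples, fewer cells of a type and less RNA per cell cannot be told apart.

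With ML210, 166 genes were higher and 113 lower of 20304 tested, or 0.818% and 0.557%, at a Benjamini-Hochberg adjusted p under 0.05 in edgeR's quasi-likelihood test without a batch term. The risers included 22 targets of NRF2, among them HMOX1, OSGIN1, NQO1 and the ferritin genes. The genes that fell included 4 of cholesterol synthesis, 5 of cell division, the receptor kinase gene RET and the G protein subunit gene GNG2. Of the 279 genes, 262 were protein-coding, and 58 belonged to at least 1 of the 35 pathway lists used here. The median change was 0.58 on the log2 scale for genes called higher and -0.46 for genes called lower, and 44 and 21 of them changed 2-fold or more. All 279 moved in 1 direction in all 3 same-batch pairs, and in all 279 the 3 ML210 libraries lay apart from the 3 controls. The genes were chosen by a test of these same libraries, so both counts follow largely from the choice and are no further support. The same holds where groups lie apart in single called genes below. Shares over all tested genes were not counted. The median over all tested genes was 0.00, and 10195 of the 20304 changes were positive, the base for counts of positive changes in the lists below. At an unadjusted p under 0.05, 1446 genes were higher and 1286 lower.

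When each batch of each line label was given its own term in the fit (the batch block), 695 genes were called higher and 691 lower, or 3.42% and 3.4% of those tested. Of the 279 genes, 277 were among them, all in the same direction. The gene plot of change against level shows both sets.

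**Figure D1:**
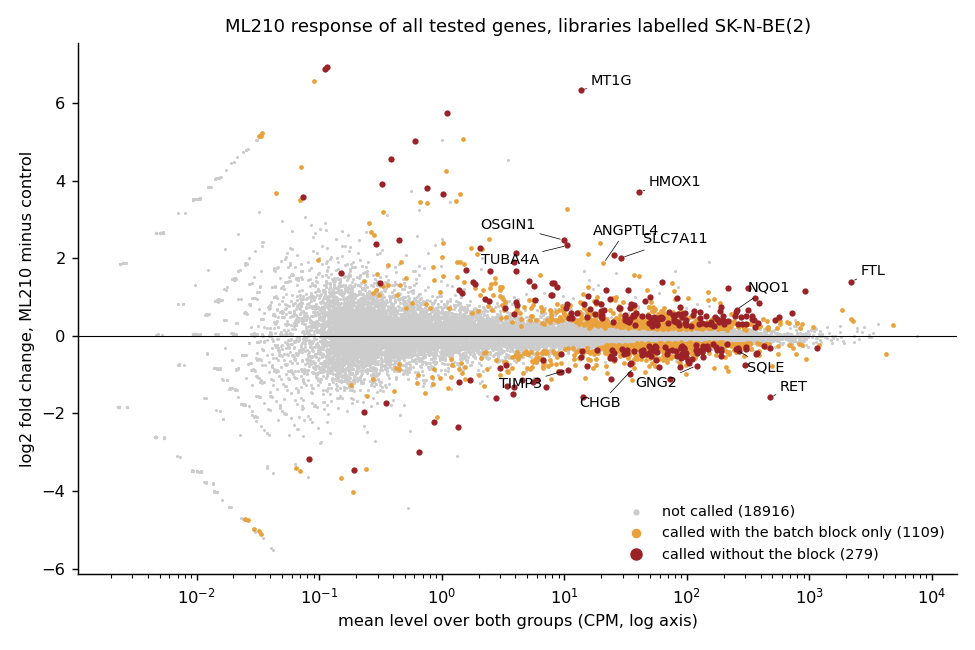
Log2 fold change (ML210 minus control, fit without batch block) against mean CPM over the 6 libraries for the tested genes. The 279 genes called without the block are red, the 1109 called with the block only are orange, and the fan of points at low level holds genes with few reads.

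NRF2 targets formed the list with the largest share of called members. Of 37 tested, 22 were called higher and 0 lower, and with the batch block 33 were higher and 0 lower. The list median was 0.67 against 0.00 over all tested genes, and 35 of 37 changes were positive. The list was chosen with earlier results of these data known, so its count is a description. The 4 members called in neither fit were CBR3 (0.61), ABCC1 (-0.05), ETFRF1 (-0.07) and UGDH (0.01), with changes on the log2 scale. NFE2L2, which encodes NRF2 itself, lay at 136, 129.8 and 119 CPM in controls 1, 2 and 3 and at 139.6, 130.2 and 119 CPM in ML210 1, 2 and 3, and its groups overlapped (log2 0.01, adjusted p = 0.982). MAFG, a small MAF partner of NRF2, was the only one of 14 genes for NRF2 and its regulators that was called without the block, at 90.9, 88.5 and 95.4 CPM in controls 1, 2 and 3 and at 149.5, 131 and 119 CPM in ML210 1, 2 and 3 (log2 0.54, SE 0.0771, adjusted p = 0.00909). KEAP1 was called higher only with the block (log2 0.20, adjusted p = 0.0382, against 0.296 without it).

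The antioxidant response element, the DNA site of NRF2 with a small MAF, has the core TGACNNNGC. It was searched on both strands of the RefSeq promoters of GRCh38.p14, each from 250 bases before to 50 bases after the gene's start. The core was found in 34 of 126 promoters of genes called higher (26.98%), 11 of 89 of genes called lower (12.36%) and 1922 of 12785 of all tested genes with a promoter in the table (15.03%). Among genes called higher that are not NRF2 targets the share was 26.13%. Of all tested NRF2 targets with a promoter in the table, 6 of 25 held the core (24%). Of 15 NRF2 targets called higher that had a promoter, 5 held it (33.33%): ME1, PIR, TXNRD1, CBR1 and GCLM. A stretch of 60 bases is printed for the 4 with a match before the RefSeq start, in gene orientation from 5′ to 3′ with the core in capitals, and in CBR1 and GCLM the core lies on the opposite strand, so its reverse complement is capitalised.
ME1 (chr6:83431155-83431214, minus strand): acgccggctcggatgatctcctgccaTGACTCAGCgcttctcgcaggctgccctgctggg
TXNRD1 (chr12:104215654-104215713, plus strand): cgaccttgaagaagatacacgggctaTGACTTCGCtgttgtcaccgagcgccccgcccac
CBR1 (chr21:36069839-36069898, plus strand): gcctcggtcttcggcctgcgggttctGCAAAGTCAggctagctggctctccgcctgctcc
GCLM (chr1:93909431-93909490, minus strand): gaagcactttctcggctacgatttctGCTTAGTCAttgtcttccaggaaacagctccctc
ME1 and TXNRD1 hold 2 matches each, of which the one further upstream is printed. The printed match in ME1 also holds TGACTCA, the letters bound by AP-1, so the 2 motifs overlap in it. A match is a description of the letters, and binding was not measured. The element of C/EBP with ATF4, searched as TGATGNAA, was found in 2.381% of promoters of genes called higher and 1.799% of all. The metal response core was searched in 2 forms, TGCACNC (13.49% against 11.53%) and TGCGCNC (26.98% against 30.08%).

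The 4 genes with printed promoters all rose. ME1, the cytosolic malic enzyme that makes NADPH (ENSG00000065833, chromosome 6, 83210389 to 83431071, GRCh38), stood at 59.2, 55.5 and 54.9 CPM in controls 1, 2 and 3 and at 132, 116 and 84.4 CPM in ML210 1, 2 and 3 (log2 0.97, SE 0.126, adjusted p = 0.00814). TXNRD1, the selenoenzyme that recharges thioredoxin (ENSG00000198431, chromosome 12, 104215779 to 104350305), stood at 269.8, 234 and 226 CPM in controls 1, 2 and 3 and at 591, 472 and 368 CPM in ML210 1, 2 and 3 (log2 0.97, SE 0.137, adjusted p = 0.0111). Both had every ML210 library above every control and were called whichever of the 6 libraries was left out. These fits kept the libraries labelled SK-N-AS, and in an unblocked fit of the 6 libraries alone neither was called (adjusted p = 0.0574 and 0.0822). GCLM, the modifier subunit of the enzyme that starts glutathione synthesis (ENSG00000023909, chromosome 1, 93885205 to 93909456), stood at 40.5, 33.3 and 31.5 CPM in controls 1, 2 and 3 and at 121, 87.1 and 65.7 CPM in ML210 1, 2 and 3 (log2 1.38, SE 0.206, adjusted p = 0.0144). CBR1, a carbonyl reductase, stood at 67.4, 70.6 and 62.7 CPM in controls 1, 2 and 3 and at 94.3, 89.7 and 84.7 CPM in ML210 1, 2 and 3 (log2 0.42, SE 0.0719, adjusted p = 0.0144). Neither had overlapping groups, but GCLM was not called without control 2 or 3 or ML210 2 (adjusted p = 0.0646 to 0.0725), and CBR1 not without control 1 or 3 or ML210 1 or 2 (adjusted p = 0.0599 to 0.0807).

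Among the other NRF2 targets, 6 more were called in the test of every left-out library. NQO1, a quinone reductase (ENSG00000181019, chromosome 16, 69706996 to 69726951), stood at 198, 214 and 176 CPM in controls 1, 2 and 3 and at 327, 328 and 285 CPM in ML210 1, 2 and 3 (log2 0.67, SE 0.083, adjusted p = 0.00341). OSGIN1, an oxidative stress growth inhibitor (ENSG00000140961, chromosome 16, 83948282 to 83966332), stood at 3.47, 3.02 and 2.62 CPM in controls 1, 2 and 3 and at 24.1, 16.9 and 9.38 CPM in ML210 1, 2 and 3 (log2 2.47, SE 0.29, adjusted p = 0.00341). In both genes the lowest ML210 library was ML210 3, and it still lay above all controls. PIR, an iron-binding nuclear protein (ENSG00000087842, chromosome X, 15384799 to 15493564), stood at 72.8, 65.3 and 68.5 CPM in controls 1, 2 and 3 and at 109, 96.2 and 99.9 CPM in ML210 1, 2 and 3 (log2 0.56, SE 0.0825, adjusted p = 0.00965). TRIM16L stood at 13.9, 14 and 12.6 CPM in controls 1, 2 and 3 and at 33.9, 32.7 and 25.5 CPM in ML210 1, 2 and 3 (log2 1.18, SE 0.123, adjusted p = 0.00109), and TRIM16 rose by 0.94 on the log2 scale (adjusted p = 0.00109). Their sequences are near-identical in part, so reads may be shared between TRIM16 and TRIM16L and the values of each are uncertain. FTH1 completes the 6 and is given with iron handling.

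Of 30 tested heme and iron genes, 6 were called higher and 0 lower: the heme oxygenase gene HMOX1, the ferritin genes FTH1 and FTL, TFRC, FECH and SLC48A1 (8 and 0 with the block, list median 0.12). HMOX1, the heme oxygenase that frees iron from heme (ENSG00000100292, chromosome 22, 35380361 to 35394214), had the largest rise among called protein-coding genes whose mean level was at least 2 on the log2 CPM scale. It stood at 6.39, 5.95 and 5.12 CPM in controls 1, 2 and 3 and at 148, 58.2 and 23.5 CPM in ML210 1, 2 and 3. All ML210 libraries lay above all controls, with ML210 1 far above ML210 3 while the controls lay close together. The fitted change was log2 3.72 (SE 0.59, adjusted p = 0.0256), and the changes within batches 1, 2 and 3 were 4.52, 3.29 and 2.19. HMOX1 was not called without control 1, 2 or 3 or ML210 2 (adjusted p = 0.0803 to 0.119).

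Ferritin, the cage that stores iron, has a heavy and a light chain, and both rose. FTH1, the heavy chain with the ferroxidase site (ENSG00000167996, chromosome 11, 61959718 to 61967660), stood at 576, 607 and 514 CPM in controls 1, 2 and 3 and at 1529, 1354 and 903 CPM in ML210 1, 2 and 3 (log2 1.16, SE 0.153, adjusted p = 0.0107). FTL, the light chain (ENSG00000087086, chromosome 19, 48965301 to 48966878), stood at 1225, 1295 and 1126 CPM in controls 1, 2 and 3 and at 4270.2, 3383 and 1923 CPM in ML210 1, 2 and 3 (log2 1.39, SE 0.224, adjusted p = 0.0212). ML210 3 was the lowest treated library of both genes and lay above every control. FTH1 was called with any library left out, and FTL was not called without control 1, 2 or 3 or ML210 2 (adjusted p = 0.0646 to 0.102). The processed pseudogenes FTH1P3 (1.67), FTH1P11 (1.36) and FTH1P7 (1.26) were also called higher. Reads may be shared between FTH1 and these copies, so their values are uncertain. FTH1P3 and FTH1P11 were chosen after their values were seen. The call of FTH1P3 was lost without ML210 1 or 2 (adjusted p = 0.0548 to 0.062), that of FTH1P7 without control 1 or 3 or ML210 1 or 2 (adjusted p = 0.0775 to 0.0981) and that of FTH1P11 without control 1 or 3 or ML210 1 or 2 (adjusted p = 0.0569 to 0.0849).

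The other called members of this list act on iron entry, heme synthesis and heme traffic. TFRC, the transferrin receptor that takes up iron (ENSG00000072274, chromosome 3, 196027183 to 196082189), stood at 248, 237 and 248 CPM in controls 1, 2 and 3 and at 462, 385 and 307 CPM in ML210 1, 2 and 3 (log2 0.65, SE 0.114, adjusted p = 0.0188), with no overlap. FECH, which inserts iron into heme, rose by 0.43 on the log2 scale (adjusted p = 0.0188), and the heme transporter SLC48A1 by 0.50 (adjusted p = 0.0323). BLVRB, a biliverdin reductase, was called higher with the block only (log2 1.43, adjusted p = 0.0334, against 0.0585 without it and 0.151 in a blocked fit of these 6 libraries alone). TFRC was not called without control 1, 2 or 3 or ML210 2 (adjusted p = 0.0611 to 0.0713), FECH not without control 1, 2 or 3 or ML210 1 or 2 (adjusted p = 0.0566 to 0.0831) and SLC48A1 not without control 2 or 3 or ML210 1 or 2 (adjusted p = 0.108 to 0.177).

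Cystine import and glutathione genes had 3 of 27 members called higher and 0 lower (5 and 0 with the block, median 0.04). SLC7A11, the cystine carrier of system xc- (ENSG00000151012, chromosome 4, 138164097 to 138242349), stood at 13, 11 and 10.9 CPM in controls 1, 2 and 3 and at 79.8, 37.9 and 22.6 CPM in ML210 1, 2 and 3 (log2 2.01, SE 0.376, adjusted p = 0.0377). The groups did not overlap, and the changes within batches 1, 2 and 3 were 2.62, 1.78 and 1.06. Its partner SLC3A2 stood at 68.8, 68.7 and 69.5 CPM in controls 1, 2 and 3 and at 191, 117 and 100.2 CPM in ML210 1, 2 and 3, also without overlap, and was called with the block only (adjusted p = 0.043, against 0.0515 without it). GSR, glutathione reductase, stood at 154, 146 and 139.6 CPM in controls 1, 2 and 3 and at 276, 226 and 184 CPM in ML210 1, 2 and 3 (log2 0.64, SE 0.112, adjusted p = 0.0188). GCLC, the catalytic partner of GCLM, was called with the block only (log2 0.32, adjusted p = 0.009, against 0.0596). SLC7A11 was not called without control 1, 2 or 3 or ML210 2 (adjusted p = 0.104 to 0.147), and GSR not without control 1, 2 or 3 or ML210 2 (adjusted p = 0.0611 to 0.0821).

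Thioredoxin, NADPH and carbonyl-reducing enzymes also rose in part. Beside TXNRD1, the thioredoxin and peroxiredoxin list had PRDX1, a peroxide-reducing enzyme (log2 0.51, adjusted p = 0.0124), and SRXN1, which repairs overoxidised peroxiredoxins (log2 1.41, adjusted p = 0.0313), making 3 of 21 higher and 0 lower (6 and 0 with the block). SRXN1 stood at 2.56, 3.49 and 2.3 CPM in controls 1, 2 and 3 and at 11, 7.18 and 4.11 CPM in ML210 1, 2 and 3, so its ML210 libraries all lay above its controls. In the NADPH list 4 of 20 were higher and 0 lower (5 and 0 with the block), among them ME1 and the pentose phosphate enzymes TKT (log2 0.33, adjusted p = 0.0123) and TALDO1 (log2 0.33, adjusted p = 0.0323). TKT stood at 334, 342 and 331 CPM in controls 1, 2 and 3 and at 394, 432 and 445 CPM in ML210 1, 2 and 3. Its batch 1 had the smallest change, the reverse of HMOX1, with 0.24, 0.34 and 0.43 in batches 1, 2 and 3. Aldo-keto and carbonyl reductases had 4 of 25 higher and 0 lower (10 and 2 with the block), namely NQO1, CBR1, NQO2 (log2 1.00, adjusted p = 0.0195) and AKR1C2 (log2 1.37, adjusted p = 0.0237). AKR1C2 stood at 4.62, 5.32 and 3.74 CPM in controls 1, 2 and 3 and at 15.4, 12.5 and 7.44 CPM in ML210 1, 2 and 3, and its reads may be shared with AKR1C1 and AKR1C3. Of 14 glutathione transferases only GSTM3 was called (log2 0.45, adjusted p = 0.0277; 2 with the block).

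Left-out libraries ended these calls as follows. PRDX1 was not called without control 1 or 3 or ML210 1 or 2 (adjusted p = 0.0537 to 0.0713), and SRXN1 not without control 1, 2 or 3 or ML210 1 or 2 (adjusted p = 0.0502 to 0.137). TKT was not called without control 1 or 3 or ML210 2 (adjusted p = 0.0673 to 0.0946), and TALDO1 not without control 1, 2 or 3 or ML210 1 or 2 (adjusted p = 0.0502 to 0.201). NQO2 was not called without control 1, 2 or 3 or ML210 1 or 2 (adjusted p = 0.0569 to 0.1), AKR1C2 not without control 1, 2 or 3 or ML210 1 or 2 (adjusted p = 0.0579 to 0.117), and GSTM3 not without control 1 or 3 or ML210 1 or 2 (adjusted p = 0.0763 to 0.16).

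GPX4, the gene of the protein that ML210 binds (ENSG00000167468, chromosome 19, 1103926 to 1106791), stood at 242, 257 and 241 CPM in controls 1, 2 and 3 and at 215, 239 and 249 CPM in ML210 1, 2 and 3. The groups overlapped, and it was not called (log2 -0.08, SE 0.0591, adjusted p = 0.667, and adjusted p = 0.462 with the block). A transcript level says nothing of the inhibition of the protein. Of 30 ferroptosis suppressors, 6 were called higher and 1 lower (10 and 5 with the block, median 0.05). The 6 were FTH1, TXNRD1, GCLM, SLC7A11, HSPB1 and AIFM2. AIFM2 encodes FSP1, which regenerates ubiquinol in membranes without GPX4 (ENSG00000042286, chromosome 10, 70098223 to 70132934), and stood at 26.7, 24.6 and 24.6 CPM in controls 1, 2 and 3 and at 59.1, 44.2 and 31.4 CPM in ML210 1, 2 and 3 (log2 0.83, SE 0.177, adjusted p = 0.0478). HSPB1, a small heat shock protein, stood at 589, 606 and 515 CPM in controls 1, 2 and 3 and at 1015, 848 and 720.4 CPM in ML210 1, 2 and 3 (log2 0.59, SE 0.102, adjusted p = 0.0168). Neither gene had overlapping groups. DHCR7, which turns 7-dehydrocholesterol into cholesterol, was the member called lower, at 169, 162 and 164 CPM in controls 1, 2 and 3 and at 133, 128 and 130.2 CPM in ML210 1, 2 and 3 (log2 -0.34, SE 0.0611, adjusted p = 0.0188). Its substrate is a sterol that traps radicals, so DHCR7 does not do what the name of the list says. AIFM2 was not called without control 1, 2 or 3 or ML210 1 or 2 (adjusted p = 0.102 to 0.165), HSPB1 not without control 1 or 3 or ML210 2 (adjusted p = 0.0566 to 0.0675) and DHCR7 not without control 1 or ML210 2 (adjusted p = 0.0599 to 0.0713).

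Of 29 ferroptosis promoters, 4 were called higher and 0 lower (5 and 2 with the block, median -0.02). They were HMOX1 and TFRC, given above, and the 2 oxidoreductases POR and CYB5R1, which can pass electrons that feed lipid peroxidation. POR stood at 70.7, 74.5 and 71.2 CPM in controls 1, 2 and 3 and at 96.7, 93.8 and 87.1 CPM in ML210 1, 2 and 3 (log2 0.36, SE 0.055, adjusted p = 0.0107) and CYB5R1 at 31.7, 33.7 and 29.1 CPM in controls 1, 2 and 3 and at 75.4, 61.1 and 40.6 CPM in ML210 1, 2 and 3 (log2 0.91, SE 0.176, adjusted p = 0.0323). ACSL4, which loads polyunsaturated fatty acids into membrane lipids, lay at 70.4, 61.9 and 60.9 CPM in controls 1, 2 and 3 and at 58.8, 56.5 and 54.2 CPM in ML210 1, 2 and 3, without overlap. It was lower with the block only (log2 -0.19, adjusted p = 0.0437, against 0.245 without it), as was the elongase ELOVL5 (log2 -0.24, adjusted p = 0.00787, against 0.0685). POR was not called without control 3 or ML210 2 (adjusted p = 0.0533 to 0.0558), and CYB5R1 not without control 1, 2 or 3 or ML210 1 or 2 (adjusted p = 0.0829 to 0.146).

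Metallothioneins rose in part: of 11 metallothionein and zinc genes, 2 were called higher and 0 lower (4 and 0 with the block, median 0.94). MT1G, which binds zinc and copper, stood at 0.308, 0.359 and 0.335 CPM in controls 1, 2 and 3 and at 44.3, 33.5 and 3.59 CPM in ML210 1, 2 and 3 (log2 6.33, SE 0.973, adjusted p = 0.0214). All controls lay under 1 CPM, and ML210 1 and ML210 2 lay far above ML210 3. MT1H, at 0, 0.0828 and 0.0279 CPM in controls 1, 2 and 3 and at 3.78, 2.57 and 0.198 CPM in ML210 1, 2 and 3, rose by 5.76 on the log2 scale from very few reads (adjusted p = 0.0274), and reads of the MT1 genes may be shared among close copies. MT2A, at 53.6, 53.8 and 42.7 CPM in controls 1, 2 and 3 and at 169, 130.0 and 56.6 CPM in ML210 1, 2 and 3, is named after its values were seen and did not pass either test (adjusted p = 0.112, or 0.0791 with the block). MT1G was not called without control 1, 2 or 3 or ML210 1 or 2 (adjusted p = 0.063 to 0.117), and MT1H not without control 1, 2 or 3 or ML210 1 or 2 (adjusted p = 0.0649 to 0.123).

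Of 46 targets of ATF4, the transcription factor of the integrated stress response, 3 were called higher and 0 lower, and 15 higher and 1 lower with the block. Their median was 0.24, and 42 of 46 changes were positive. The 3 were SLC7A11, the transcription factor CEBPB (log2 0.48, adjusted p = 0.0188) and the proline enzyme PYCR1 (log2 0.26, adjusted p = 0.0301). Genes of the unfolded protein response had 0 of 26 called by edgeR without the block, 1 higher by DESeq2 and 6 higher with the block, and 7 were higher at an unadjusted p under 0.05 (median 0.11). The heat shock list had HSPB1 alone of 25 (5 higher with the block). CEBPB was not called without control 1 or 3 or ML210 1 or 2 (adjusted p = 0.0922 to 0.11), and PYCR1 not without control 1, 2 or 3 or ML210 1 or 2 (adjusted p = 0.0635 to 0.164).

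Lysosome and autophagy genes had 4 of 37 members called higher and 0 lower, and 14 and 0 with the block (median 0.22, with 31 of 37 positive). TFE3, a transcription factor for lysosome genes (ENSG00000068323, chromosome X, 49028726 to 49043486), stood at 66.6, 68.7 and 62.2 CPM in controls 1, 2 and 3 and at 99.8, 98.6 and 88.4 CPM in ML210 1, 2 and 3 (log2 0.54, SE 0.0688, adjusted p = 0.00433). Its change was even, at 0.58, 0.52 and 0.51 in batches 1, 2 and 3, and it was called with any library left out. SQSTM1, the autophagy receptor p62 that also binds KEAP1 (ENSG00000161011, chromosome 5, 179806398 to 179838078), stood at 184, 219 and 171 CPM in controls 1, 2 and 3 and at 569.5, 487 and 283 CPM in ML210 1, 2 and 3 (log2 1.22, SE 0.209, adjusted p = 0.0268). The lysosomal enzyme NEU1 also rose (log2 0.35, adjusted p = 0.0154). SQSTM1 was not called without control 1, 2 or 3 or ML210 1 or 2 (adjusted p = 0.0607 to 0.129), and NEU1 not without control 1 or 3 or ML210 1 or 2 (adjusted p = 0.0834 to 0.0946).

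Several lists had 0 members called by edgeR without the block. Of 29 p53 targets, 4 were higher and 5 lower at an unadjusted p under 0.05, 1 was higher by DESeq2, and 2 were higher and 1 lower with the block. Of 26 apoptosis regulators, 1 was higher and 5 lower at that unadjusted p, 0 were called by DESeq2, and 1 was higher and 1 lower with the block. NF-kB and cytokine targets (23 tested) had 2 higher and 1 lower unadjusted, 1 higher by DESeq2, and 1 each way with the block. Interferon-stimulated genes (31) had 1 each way unadjusted, 0 by DESeq2 and 1 lower with the block, and targets of MYC and MYCN (34) had 2 higher and 3 lower unadjusted, 0 by DESeq2 and 1 higher with the block. Of 35 nuclear-encoded respiratory chain genes, 39 cytosolic ribosomal protein genes and 13 mitochondrially encoded transcripts, 0 were called by edgeR with or without the block or by DESeq2, and only 1, a mitochondrial transcript, passed the unadjusted p. Immediate early genes had DUSP4 (log2 0.48, adjusted p = 0.0188) alone of 34 called without the block. DESeq2 called 3 of them higher and 1 lower, and 2 were higher and 3 lower with the block. Hypoxia and glycolysis genes had ENO2 (log2 0.47, adjusted p = 0.0268) alone of 36 without the block. In that list 3 were higher by DESeq2, and 5 were higher and 0 lower with the block. Fatty acid oxidation genes had CPT1A, the carrier of fatty acids into mitochondria (log2 0.39, adjusted p = 0.024), alone of 32 without the block. There 2 were higher and 1 lower by DESeq2, and 4 higher and 1 lower with the block. DUSP4 was not called without control 1 or 3 or ML210 1 or 2 (adjusted p = 0.0642 to 0.108), ENO2 not without control 1, 2 or 3 or ML210 1 or 2 (adjusted p = 0.0558 to 0.0977) and CPT1A not without control 1, 2 or 3 or ML210 1 or 2 (adjusted p = 0.0625 to 0.14). Selenoprotein genes had TXNRD1, the methionine sulfoxide reductase MSRB1 (log2 0.38, adjusted p = 0.0272) and the receptor LRP8 (log2 0.46, adjusted p = 0.0315), which takes up selenoprotein P, called higher of 27 and 0 lower, with the same counts under the block. MSRB1 was not called without control 1, 2 or 3 or ML210 1 or 2 (adjusted p = 0.0602 to 0.159), and LRP8 not without control 1, 2 or 3 or ML210 1 or 2 (adjusted p = 0.0624 to 0.155). The bar plot by list gives the shares.

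**Figure D2:**
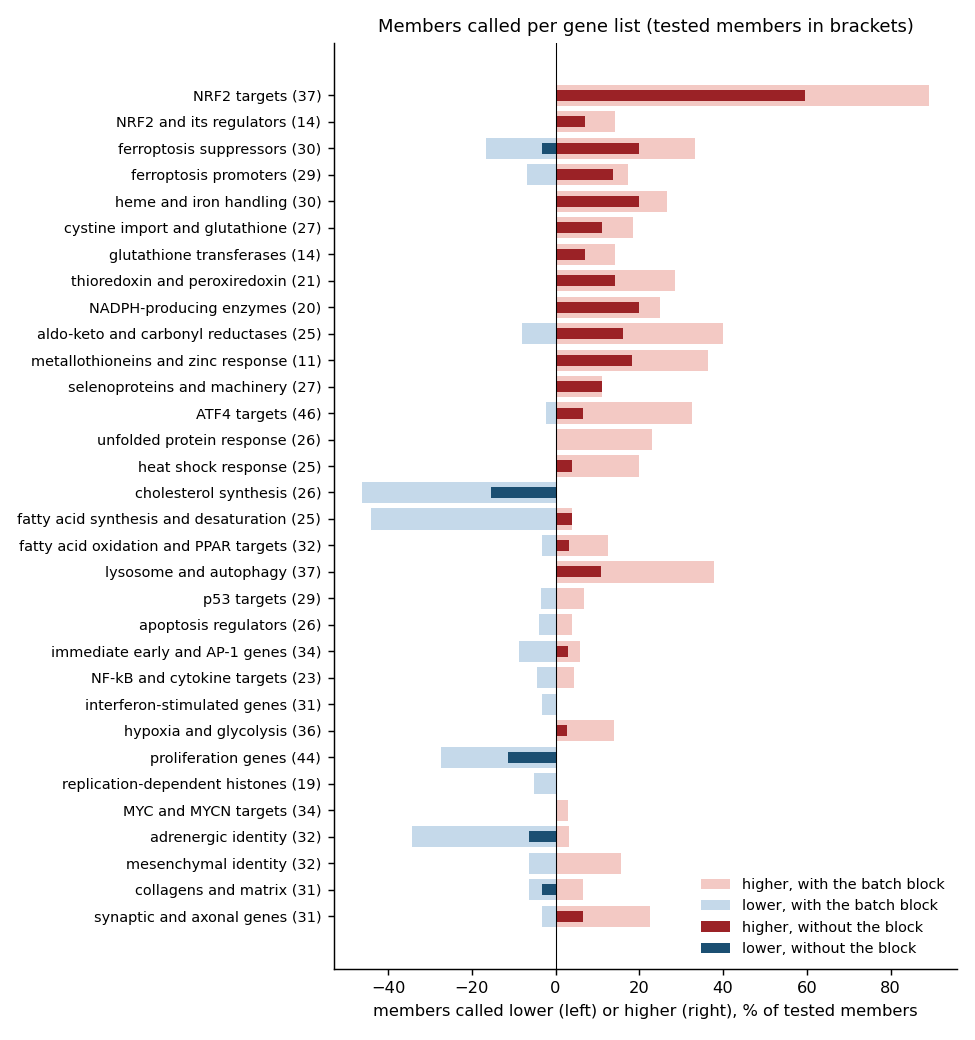
Share of tested members called lower (left of 0) and higher (right of 0) with ML210 in each pathway list with a call, with the number of tested members in brackets. Dark narrow bars are the fit without the batch block and pale bars the fit with it. NRF2 targets reach 22 of 37 without the block, and cholesterol synthesis, fatty acid synthesis, proliferation and adrenergic identity extend to the left.

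Genes of sterol synthesis fell: of 26 cholesterol genes 4 were called lower and 0 higher, and 12 lower and 0 higher with the block (median -0.21, with 2 of 26 positive). SQLE, the squalene epoxidase, stood at 288, 276 and 283 CPM in controls 1, 2 and 3 and at 216, 209.9 and 238 CPM in ML210 1, 2 and 3 (log2 -0.35, SE 0.055, adjusted p = 0.0111). DHCR7 is given above, and FDFT1, which makes squalene, fell by 0.30 on the log2 scale (adjusted p = 0.0332). These genes had every ML210 library below every control. SQLE was not called without ML210 2 (adjusted p = 0.0579), and FDFT1 not without control 1 or 2 or ML210 1 or 2 (adjusted p = 0.0987 to 0.137).

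Fatty acid synthesis genes were called lower more often with the block. In edgeR without it 1 of 25 members was higher and 0 lower, and with it 1 was higher and 11 lower (median -0.18). Without the block 1 was higher and 11 lower at an unadjusted p under 0.05, and DESeq2 called 1 higher and 3 lower. The riser in both was FADS3, a desaturase of sphingoid bases, at 27.2, 29.6 and 25 CPM in controls 1, 2 and 3 and at 57.4, 48.4 and 35.3 CPM in ML210 1, 2 and 3 (log2 0.78, SE 0.146, adjusted p = 0.0214). SCD, which makes monounsaturated fatty acids, stood at 896, 837 and 962 CPM in controls 1, 2 and 3 and at 605, 644 and 699 CPM in ML210 1, 2 and 3, with all ML210 libraries below all controls, and was lower in edgeR with the block only (log2 -0.47, adjusted p = 0.000379, against 0.0656). SREBF1, ACLY, ACACA and FASN were also lower in edgeR with the block only, at -0.42, -0.23, -0.23 and -0.23 on the log2 scale. They are named, as is SCD, after their values were seen. FADS3 was not called without control 1, 2 or 3 or ML210 1 or 2 (adjusted p = 0.0501 to 0.0946).

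Genes of cell division fell, with 5 of 44 proliferation genes called lower and 0 higher, and 12 lower and 0 higher with the block (median -0.19, with 2 of 44 positive). TOP2A, the topoisomerase of dividing cells (ENSG00000131747, chromosome 17, 40388516 to 40417950), stood at 460.3, 425 and 417 CPM in controls 1, 2 and 3 and at 287, 301 and 366 CPM in ML210 1, 2 and 3 (log2 -0.45, SE 0.0823, adjusted p = 0.0195). The mitotic kinesins KIF11 (log2 -0.37, adjusted p = 0.0342) and KIF20A (log2 -0.27, adjusted p = 0.0418) and the nucleotide synthesis enzymes RRM2 (log2 -0.37, adjusted p = 0.0418) and TYMS (log2 -0.38, adjusted p = 0.0483) were the others. The list medians were -0.34, -0.22 and 0.00 in batches 1, 2 and 3. For TOP2A the changes were -0.68, -0.50 and -0.19, and for TYMS -0.59, -0.48 and -0.07. TOP2A was not called without control 1 or 2 or ML210 1 or 2 (adjusted p = 0.0501 to 0.0988), KIF11 not without control 1, 2 or 3 or ML210 1 or 2 (adjusted p = 0.0635 to 0.15) and KIF20A not without control 1, 2 or 3 or ML210 1 or 2 (adjusted p = 0.0704 to 0.148). RRM2 was not called without control 1, 2 or 3 or ML210 1 or 2 (adjusted p = 0.0649 to 0.206), and TYMS not without control 1, 2 or 3 or ML210 1 or 2 (adjusted p = 0.0663 to 0.208). Replication-dependent histones, whose transcripts lack a poly(A) tail, had 0 of 19 called by edgeR without the block, 5 lower at an unadjusted p under 0.05, 2 lower by DESeq2 and 1 lower with the block, with medians of -0.38, -0.29 and 0.01 in the 3 batches.

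Genes of adrenergic identity were lower in part: 2 of 32 were called lower and 0 higher, and 11 lower and 1 higher with the block (median -0.15). RET, the receptor kinase for GDNF-family ligands (ENSG00000165731, chromosome 10, 43077027 to 43130351), stood at 624, 734 and 807 CPM in controls 1, 2 and 3 and at 176, 257 and 295 CPM in ML210 1, 2 and 3 (log2 -1.57, SE 0.191, adjusted p = 0.00965). The highest ML210 library lay far below the lowest control, and RET was called with any library left out. PHOX2A, a transcription factor of sympathetic neurons (ENSG00000165462, chromosome 11, 72239077 to 72245664), stood at 117, 140.0 and 129.6 CPM in controls 1, 2 and 3 and at 61.7, 85.8 and 92 CPM in ML210 1, 2 and 3 (log2 -0.69, SE 0.116, adjusted p = 0.017) and was not called without control 2 or 3 or ML210 2 (adjusted p = 0.0519 to 0.0604). CHGB, a granin of secretory vesicles, stood at 25.8, 35.6 and 80.4 CPM in controls 1, 2 and 3 and at 12.6, 19.6 and 47.9 CPM in ML210 1, 2 and 3, so its groups overlapped, while each ML210 library lay below the control of its batch. CHGB was called with the block only (log2 -0.87, SE 0.0627, adjusted p = 3.72e-05, against 0.591 without it). Mesenchymal identity genes had 0 of 32 called by edgeR without the block, 3 higher and 1 lower at an unadjusted p under 0.05, 1 higher by DESeq2, and 5 higher and 2 lower with the block.

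A few genes of nerve cell structure rose. Synaptic and axonal genes had MAPT, the microtubule protein tau (log2 0.87, adjusted p = 0.0136), and the axonal kinesin KIF1A (log2 1.70, adjusted p = 0.0356) called of 31, with 7 higher and 1 lower with the block. MAPT stood at 11, 13.1 and 14.3 CPM in controls 1, 2 and 3 and at 23.5, 25.5 and 21.1 CPM in ML210 1, 2 and 3. KIF1A stood at 0.454, 0.524 and 1.21 CPM in controls 1, 2 and 3 and at 3.17, 2.33 and 1.72 CPM in ML210 1, 2 and 3, a gene of few reads, and was not called with the block (adjusted p = 0.0846). NEFL, the light neurofilament, stood at 50.2, 43.5 and 29.8 CPM in controls 1, 2 and 3 and at 80.6, 65.6 and 44.8 CPM in ML210 1, 2 and 3, with overlapping groups, and was higher with the block only (log2 0.62, adjusted p = 4.33e-05, against 0.237). Among the largest rises were TUBA4A, an alpha-tubulin (ENSG00000127824, chromosome 2, 219249711 to 219278170; log2 2.33, SE 0.401, adjusted p = 0.0264), and MAP1A, a microtubule-associated protein (log2 1.22, adjusted p = 0.0272). TUBA4A stood at 3.73, 4.5 and 2.33 CPM in controls 1, 2 and 3 and at 26.3, 19.2 and 7.57 CPM in ML210 1, 2 and 3, and its reads may be shared with other alpha-tubulins. MAPT was not called without ML210 2 (adjusted p = 0.0519), KIF1A not without control 1 or 2 or ML210 1 or 2 (adjusted p = 0.101 to 0.12), TUBA4A not without control 1, 2 or 3 or ML210 1 or 2 (adjusted p = 0.0635 to 0.122) and MAP1A not without control 1, 2 or 3 or ML210 1 or 2 (adjusted p = 0.0537 to 0.119).

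Other large risers were B4GALNT1, the synthase of the gangliosides GM2 and GD2 (ENSG00000135454, chromosome 12, 57623410 to 57633355), SLC38A6, an amino acid carrier (log2 1.29, adjusted p = 0.026), and ABHD4, a lipase of N-acyl phospholipids (log2 1.18, adjusted p = 0.0133). B4GALNT1 stood at 9.9, 9.43 and 9.8 CPM in controls 1, 2 and 3 and at 59.5, 42.8 and 20.4 CPM in ML210 1, 2 and 3 (log2 2.07, SE 0.315, adjusted p = 0.0188), with the controls within 1 CPM of each other. B4GALNT1 was not called without control 1, 2 or 3 or ML210 2 (adjusted p = 0.0668 to 0.0912), SLC38A6 not without control 1, 2 or 3 or ML210 1 or 2 (adjusted p = 0.0737 to 0.108) and ABHD4 not without control 1, 2 or 3 or ML210 2 (adjusted p = 0.0501 to 0.0598).

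The gene with the smallest adjusted p was GNG2, a gamma subunit of heterotrimeric G proteins (ENSG00000186469, chromosome 14, 51826195 to 51979342). It stood at 148, 157 and 149 CPM in controls 1, 2 and 3 and at 87.8, 96.1 and 82.9 CPM in ML210 1, 2 and 3 (log2 -0.77, SE 0.0604, adjusted p = 0.000146), and its changes of -0.76, -0.71 and -0.84 in batches 1, 2 and 3 were unlike the general pattern, with batch 3 the largest. REC8, a meiotic cohesin subunit, stood at 72.2, 74.7 and 78.8 CPM in controls 1, 2 and 3 and at 37.3, 43.8 and 48.3 CPM in ML210 1, 2 and 3 (log2 -0.80, SE 0.0959, adjusted p = 0.00316). TIMP3, an inhibitor of matrix metalloproteinases, stood at 14.8, 13.9 and 12.6 CPM in controls 1, 2 and 3 and at 7.24, 7.94 and 7.33 CPM in ML210 1, 2 and 3 (log2 -0.88, SE 0.128, adjusted p = 0.00965), and HES1, a repressor downstream of Notch, at 19.1, 20.7 and 18.5 CPM in controls 1, 2 and 3 and at 10.6, 11.4 and 12 CPM in ML210 1, 2 and 3 (log2 -0.78, SE 0.119, adjusted p = 0.0107). MYH15, a myosin heavy chain, fell by 1.12 on the log2 scale (adjusted p = 0.0111). All 5 had the groups apart and were called with any library left out. TIMP3 was the only called member of 31 collagen and matrix genes (2 higher and 2 lower with the block).

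The remaining large falls lost their call without some library. SERTM1, a small membrane protein, stood at 23.3, 20.6 and 20.2 CPM in controls 1, 2 and 3 and at 5.5, 6.41 and 9.67 CPM in ML210 1, 2 and 3 (log2 -1.57, SE 0.335, adjusted p = 0.0499). The serotonin receptor HTR2B (log2 -1.20, adjusted p = 0.024), the Groucho-family gene TLE6 (log2 -1.13, adjusted p = 0.0133), SMIM3 (log2 -1.12, adjusted p = 0.0111) and HR, the hairless corepressor (log2 -0.94, adjusted p = 0.0107), followed. The metalloproteinase MMP28 (log2 -0.94, adjusted p = 0.0264), the neuron navigator NAV2 (log2 -0.80, adjusted p = 0.0272) and the semaphorin receptor PLXNA2 (log2 -0.75, adjusted p = 0.0144) were smaller. SERTM1 was not called without control 1, 2 or 3 or ML210 1 or 2 (adjusted p = 0.119 to 0.218), HTR2B not without control 1, 2 or 3 or ML210 1 or 2 (adjusted p = 0.0607 to 0.0946), and PLXNA2 not without control 1 or 3 or ML210 2 (adjusted p = 0.0577 to 0.0803). MMP28 was not called without control 1, 2 or 3 or ML210 1 or 2 (adjusted p = 0.0519 to 0.0996), and NAV2 not without control 1 or ML210 1 or 2 (adjusted p = 0.0574 to 0.114). A single library ended the call of TLE6, namely ML210 1 (adjusted p = 0.0569), and the same held for SMIM3 with ML210 2 (adjusted p = 0.0539) and HR with ML210 2 (adjusted p = 0.0519).

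**Figure D3:**
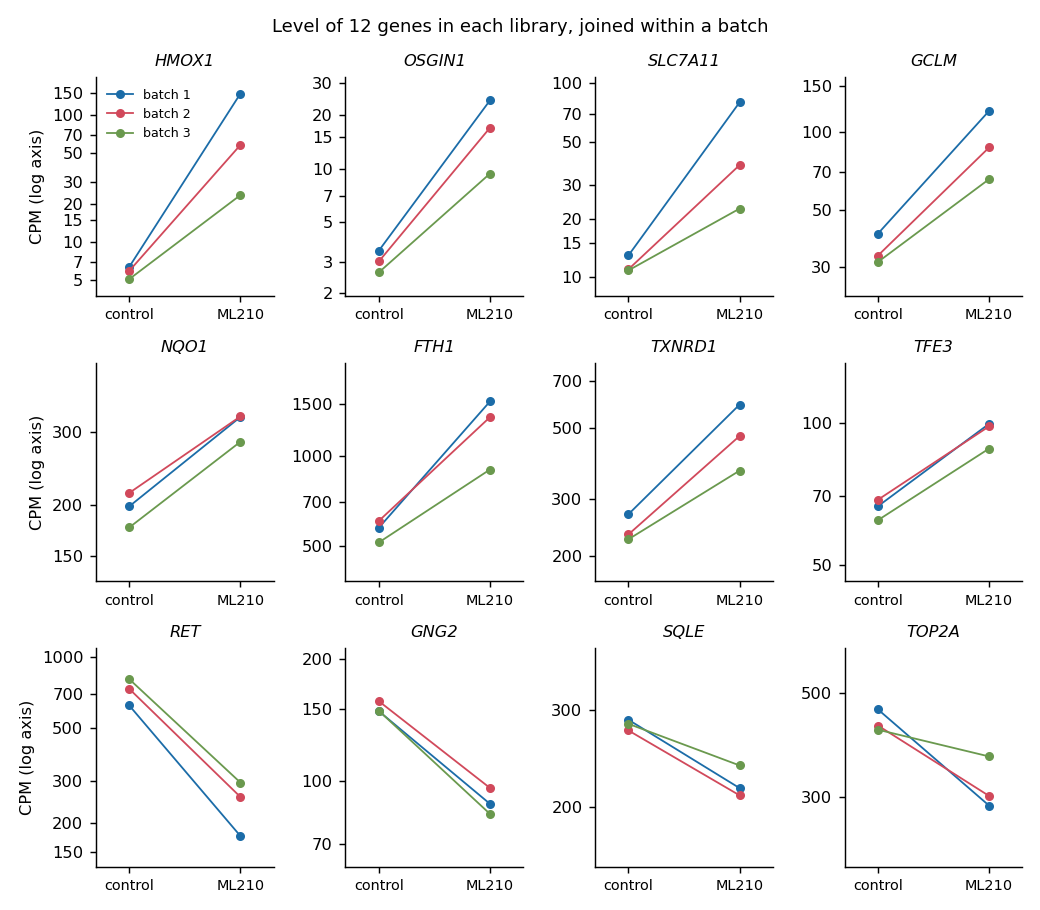
CPM on a log axis in each control and ML210 library for 12 named genes, with lines joining the libraries of a batch and each panel on its own scale. For HMOX1, SLC7A11 and OSGIN1 the ML210 libraries fan out from near-equal controls, with batch 1 highest and batch 3 lowest, while the lines of NQO1, TFE3 and GNG2 run nearly parallel.

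The batch block raised the count of called genes from 279 to 1386. The common dispersion of the fit was 0.02225 without the block and 0.008463 with it, at 8 and 4 residual degrees of freedom. The 1109 genes added by the block included genes whose 2 groups overlapped but whose same-batch changes were alike, such as CHGB (-1.03, -0.86 and -0.75 in batches 1, 2 and 3) and NEFL (0.68, 0.59 and 0.59). ANGPTL4, a secreted inhibitor of lipoprotein lipase, had the groups apart, at 11.4, 8.33 and 7.24 CPM in controls 1, 2 and 3 and at 35.1, 33.6 and 29.5 CPM in ML210 1, 2 and 3. It was not called without the block (adjusted p = 0.113) and was called with it (log2 1.89, adjusted p = 5.66e-05). Its pair changes were 1.62, 2.01 and 2.02, so batch 1 was the smallest.

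Other genes added by the block with the smallest adjusted p were the heparan sulfate proteoglycan GPC1 (log2 0.91, adjusted p = 8.92e-05), the actin-binding PALLD (0.93, 0.000173), the intermediate filament protein SYNM (0.62, 7.11e-05) and the exporter ABCC2 (1.13, 0.000153) among risers. Among falling genes they were the signalling inhibitor RGS16 (-1.16, 2.18e-05), the retinoic acid binding protein CRABP2 (-0.78, 5.66e-05), the sterol-binding OSBPL3 (-0.48, 0.000173), FAM163A (-0.72, 6.64e-05) and FRMD3 (-0.52, 0.000174), with the log2 change first and the adjusted p second. Without the block their adjusted p lay between 0.0616 for GPC1 and 0.398 for FRMD3. A fit of the 6 libraries labelled SK-N-BE(2) alone called 51 genes without a block (15 higher, 36 lower) and 1044 with one (533 higher, 511 lower), and 907 of the 1044 were also called with the block over all 12. Of the genes named here, HMOX1, SLC7A11, B4GALNT1, MAP1A, APOL2 and MT1G were not called in the blocked fit of 6 (adjusted p = 0.151, 0.157, 0.140, 0.143, 0.107 and 0.0730), nor were SLC38A6, KIF1A and ABHD4 (adjusted p = 0.0518 to 0.0582). Of those called with the block only, SLC3A2, BLVRB, KEAP1, ACSL4, ACLY, ACACA, FASN, CLDN4 and KDR were not called in it (adjusted p = 0.0517 to 0.151).

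The response was uneven across the replicates: it was largest in batch 1 and smallest in batch 3. Over the 11261 tested genes at a mean level of 2 or more on the log2 CPM scale, the SD of the log2 change between ML210 and control was 0.332 in batch 1, 0.240 in batch 2 and 0.186 in batch 3. In the same genes 189, 76 and 24 changed 2-fold or more in batches 1, 2 and 3. Among the 279 called genes the largest of the 3 changes was that of batch 1 in 217 genes, of batch 2 in 40 and of batch 3 in 22, and the smallest was that of batch 3 in 211. The genes called higher had medians of 0.75, 0.60 and 0.40 in batches 1, 2 and 3, and those called lower -0.59, -0.47 and -0.40. With 1 library per group and batch the difference between batches has no test. Beside these values, mitochondrial reads took 2.27, 2.73 and 2.02% in ML210 1, 2 and 3, and library totals were 60574810, 58115886 and 64926300, and their part in the uneven size was not tested. Across genes, the change of batch 1 correlated with that of batch 2 at r = 0.71, with that of batch 3 at 0.47, and batches 2 and 3 at 0.58. The genes are not independent replicates.

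The called genes were chosen with all 3 batches, so the sizes were also read in genes called without the batch in question. With the block and batch 1 left out, 505 genes were called, and 97.4% of them moved the same way in batch 1, where the 274 risers had a median of 0.59 against 0.46 in the other 2. With batch 2 left out, 291 were called, 96.9% moved the same way, and the 138 risers had a median of 0.62 against 0.63. With batch 3 left out, 1864 were called. Of 1859 that could be read, 84.3% moved the same way in batch 3, but the 688 risers had a median of 0.21 against 0.52 and the 1171 fallers -0.12 against -0.34. Measured against the mean of the controls, these same risers had medians of 0.62, 0.48 and 0.18 in ML210 1, 2 and 3, while controls 1, 2 and 3 lay at 0.03, 0.00 and -0.03. Over the sets called without batch 1, 2 or 3, the medians of the controls lay between -0.10 and 0.06 for risers and between -0.09 and 0.12 for fallers. Those of the ML210 libraries lay between 0.18 and 0.89 for risers and between -0.68 and -0.11 for fallers, and ML210 3 was nearest to 0 in each set. On the first principal component of the 6 libraries (53.96% of the variance), ML210 3 at -4.56 lay nearer to the controls (-9.11, -6.79 and -16.2) than to ML210 1 (22.4) and ML210 2 (14.4).

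**Figure D4:**
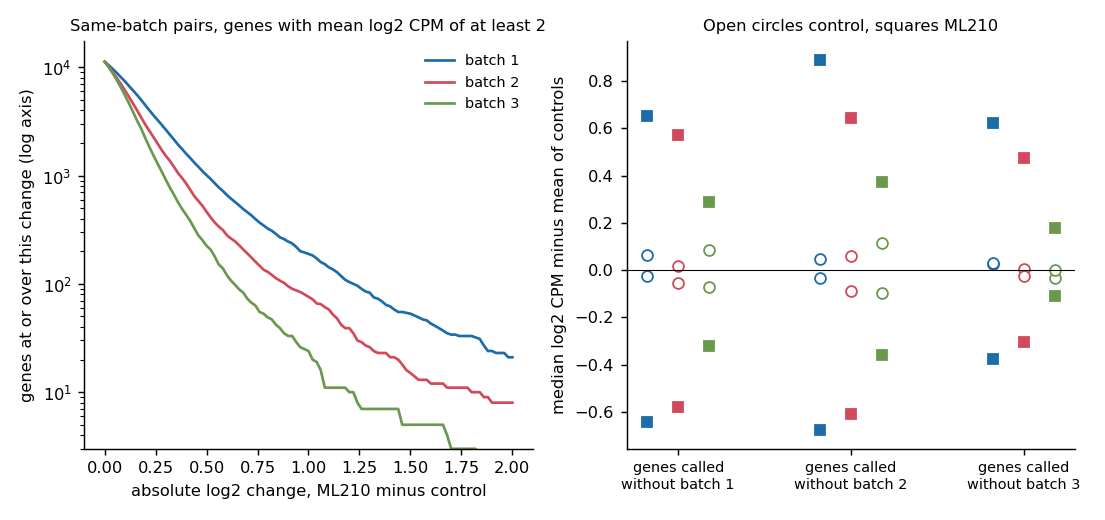
Left, number of genes (log axis) whose absolute log2 change within a batch reaches the value on the x axis, over the 11261 genes at a mean level of 2 or more on the log2 CPM scale. Right, median level of genes called with the block while a batch was left out, per library, relative to the control mean, with risers above 0 and fallers below. The batch 1 curve lies above batch 2 and batch 3, and the ML210 3 squares lie closest to 0 in all 3 sets.

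Single genes differed in how uneven they were. The largest gaps between pairs among the called genes above that level were in HMOX1, SLC7A11, B4GALNT1 (2.58, 2.18 and 1.05 in batches 1, 2 and 3), SLC38A6 (1.87, 1.32 and 0.39), SRXN1 (2.09, 1.03 and 0.83), FTH1P7 (1.87, 1.14 and 0.64), the antisense gene FAM222A-AS1 (-1.90, -0.73 and -0.92) and APOL2 (1.30, 0.83 and 0.17). Counts of an antisense gene may hold reads of its partner. In contrast NQO1 changed by 0.72, 0.62 and 0.69, PIR by 0.58, 0.56 and 0.55 and CPT1A by 0.32, 0.43 and 0.41. Genes called with the block for the response labelled SK-N-AS were also read here. That fit took its spread from all 12 libraries, so genes uneven across these pairs were less likely to be called. Evenness in this set may therefore come in part from how it was chosen. Of 21 genes called higher there, 19 had a positive change in these libraries. The medians over the 21 were 0.58, 0.56 and 0.52 in batches 1, 2 and 3. Of 17 called lower there, 13 had a negative change here, with medians over the 17 of -0.37, -0.31 and -0.34. APOL2 was not called without control 1, 2 or 3 or ML210 1 or 2 (adjusted p = 0.0969 to 0.179), and FAM222A-AS1 not without control 1 or 3 or ML210 2 (adjusted p = 0.0664 to 0.0764).

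The number of called genes moved with the library left out. Without ML210 3, 1242 genes were called (556 higher, 686 lower), among them 277 of the 279. Without ML210 1 there were 79, and without ML210 2 there were 48. Without controls 1, 2 and 3 there were 76, 117 and 79. Of the 279 genes 34 were called in all 6 fits, 18 higher and 16 lower, and 8 of the 34 were NRF2 targets. All 6 fits kept the libraries labelled SK-N-AS. No called gene changed direction in any of these fits.

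**Figure D5:**
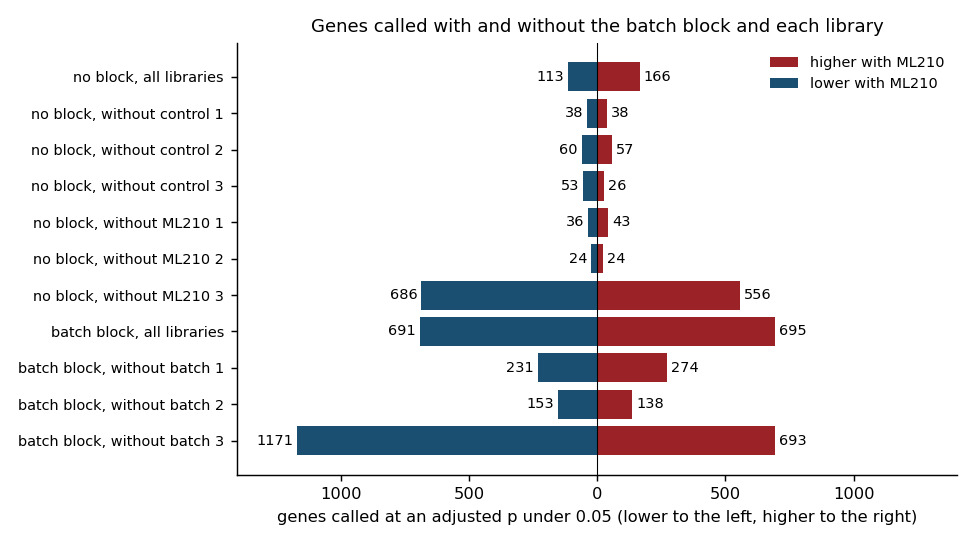
Number of genes called lower (left) and higher (right) with ML210 at an adjusted p under 0.05 in fits without the batch block, with each library left out in turn, and in fits with the block, with each batch left out in turn. Both the fit without ML210 3 and the blocked fit without batch 3 lie above the fits that leave out another library or batch.

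Set against the ML210 response of the libraries labelled SK-N-AS, the difference of the responses passed the test in 1 gene, GNG2, or 0.00493% of those tested. With the block it passed in 85 genes (0.419%), 48 higher and 37 lower in the label SK-N-BE(2), and 78 of the 85 were also called in these libraries with the block. GNG2 changed by 0.01 labelled SK-N-AS against -0.77 here (difference -0.78, adjusted p = 0.00791, and 0.00169 with the block). The difference was called with the block only for FTH1 (0.29 against 1.16), TXNRD1 (0.27 against 0.97) and TUBA4A (0.38 against 2.33), which rose more here. It was also called with the block only for RET (-0.83 against -1.57), which fell more. The changes in these brackets are from the fit without the block. For NQO1 (0.90 against 0.67) and PIR (0.61 against 0.56) the difference was not called in either fit.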

How the data were processed

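RNA of cells labelled SK-N-BE(2) or SK-N-AS, with or without ML210, was sequenced in 12 libraries after stranded mRNA library preparation, per the labels' protocols. The authors deposited 1 table of raw read counts per gene, in which 61552 Ensembl genes are listed and 36967 have a read. FastQC, Trimmomatic 1.4, HISAT2 2.2.1 and featureCounts 2.0.5 on GRCh38 (hg38) are named in the submitters' processing notes, while the strand setting, the annotation and the treatment of multimapping reads are stated nowhere in the labels or headers, so reads of a gene and its antisense partner may be mixed. Gene names came from a gene ID table (61399 IDs) or GENCODE 29 (145), and 8 IDs had no name. Coordinates are from GENCODE 29 on GRCh38. All 12 columns matched a sample.

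Totals were 54047293 to 83481963 reads per library. Genes were filtered by filterByExpr, which left 20304, scaled by TMM and tested with edgeR 4.0.16 in R 4.3.3 (robust quasi-likelihood fit of all 12 libraries, 1 coefficient per group, two-sided, Benjamini-Hochberg adjustment over all tested genes, called under 0.05). The script was tested on simulated counts without a batch effect, with 100 genes changed by 0.5 and 100 by 1 on the log2 scale. Without the block 59 and 93 of these were called, beside 13 false calls. With the block 55 and 93 were called, beside 25 false calls, so the blocked fit made more false calls there. In both fits of that simulation, false calls were a larger share of all calls than the 0.05 aimed at. DESeq2 1.42.0 and limma 3.58.1 were alternatives. CPM values are counts over the scaled library size, and log2 CPM used a prior count of 2. Changes within a batch are differences of log2 CPM between the ML210 and control libraries of that batch.

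The labels give each library a batch from 1 to 3, which pairs control and ML210. Deviations from the group means correlated at 0.323, 0.601 and 0.528 between the 2 libraries of a batch labelled SK-N-BE(2) and at -0.455 to -0.069 between libraries of different batches. Labelled SK-N-AS, the same-batch values were 0.801, 0.341 and 0.497. There control 2 with ML210 3 reached 0.676 and control 3 with ML210 2 reached 0.451, so the deviations did not follow the batch label throughout. Deviations cancel within a group, so these correlations are not independent of each other. The batch block is a term for each batch within each line label. Alternatives were other scalings, filters and tools, a fit of 6 libraries, and leaving out each library or batch. The blocked fits that leave out a batch or use library totals were added after seeing the data.

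The groups, the 35 pathway lists and the 5 marker lists were chosen with earlier results of these data known. Of 1005 list members 1002 matched a gene, and 40 lists were used. The genes named are GPX4 and MYCN, up to 14 called protein-coding genes each way by fold at a mean log2 CPM of 2 or more that moved 1 way in all 3 pairs, and up to 5 per list by adjusted p. Added to these are up to 6 each way called with the block only and up to 6 each way by the difference between line labels, both by adjusted p, up to 8 with the largest gap between pairs, and members of the NRF2 and ferroptosis lists where a count needs them. Promoter sequences are from RefSeq on GRCh38.p14. Some members counted in the lists are not reported here by name.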

Additional observations from a re-analysis of the deposited data

Results flagged for a closer look

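The results below are listed because the change with ML210 differed between the 2 line labels in a test of the difference itself. Values are the log2 response labelled SK-N-BE(2) minus that labelled SK-N-AS. GNG2 passed without the batch block (-0.78) and with it (-0.78). The others passed with the block only. The difference was positive for TUBA4A (1.84), PALLD (0.93), FTH1 (0.84), GPC1 (0.71), TXNRD1 (0.68), NEFL (0.60) and the methionine sulfoxide reductase gene MSRB1 (0.45). It was negative for MMP28 (-1.02), CHGB (-0.82), RET (-0.77), SMIM3 (-0.75), RGS16 (-0.70), OSBPL3 (-0.52), FAM163A (-0.52), REC8 (-0.50) and FRMD3 (-0.45). The 2 labels are each 1 cell line, and MYCN runs against both labels, so which line a difference belongs to is given by label only. Without the block 1454 genes had an unadjusted p under 0.05 for this difference.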

How the results depend on the processing

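Of the 279 called genes, 0 reversed in direction under any setting run. With the replicate block, which follows the batch pairing, 1386 genes were called (695 higher, 691 lower), and 1399 (706, 693) with library totals as well. Other counts were 790 (428, 362) with DESeq2 and 1484 (693, 791) with DESeq2 and the block, 556 (272, 284) without a filter on low counts, 51 (15, 36) in the 6 libraries alone and 1044 (533, 511) in these with the block. At an adjusted p under 0.01 there were 23 (13, 10), and 122 (82, 40) at a fold of at least 1.5. Leaving out a library or batch gave 9 to 1242 genes, 4 to 556 higher and 5 to 686 lower, with the low end without batch 2 and the high end without ML210 3. With the block, leaving out a batch gave 505 (274, 231), 291 (138, 153) and 1864 (693, 1171) for batches 1, 2 and 3. Library totals, DESeq2 size factors, limma voom, the filter at 1 CPM and the non-robust fit gave 248 to 365 genes. With library totals 206 were higher and 112 lower, or 64.78% higher against 59.5%. The difference between line labels passed in 85 genes with the replicate block, 122 with library totals too, 45 with DESeq2, 377 with DESeq2 and the block, 24 without a filter, and 1 to 156 with a library left out, 156 without ML210 3. The SD of log2 changes over all tested genes was 0.697, 0.586 and 0.530 in batches 1, 2 and 3. It was 0.332, 0.240 and 0.186 in genes at a mean log2 CPM of 2 or more, and 0.886, 0.766 and 0.706 with a prior count of 0.5, so the order of the batches held in all 3 readings. The named genes kept their side of the threshold in 1493 comparisons, lost it in 503 and gained it in 115. The causes of these differences were not tested. Each group holds 3 libraries and 17 of the 279 genes had a mean under 1 CPM, where few reads limit the precision.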

Other observations

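Of the 34 genes called with every library left out, several lie outside the lists and rules used above and were chosen after their values were seen. UCHL1, a neuronal ubiquitin hydrolase, stood at 256, 277 and 297 CPM in controls 1, 2 and 3 and at 524, 534 and 429 CPM in ML210 1, 2 and 3 and rose (log2 0.84, SE 0.0881, adjusted p = 0.00109). PLD3, a lysosomal exonuclease, stood at 198, 204 and 189 CPM in controls 1, 2 and 3 and at 333, 328 and 251 CPM in ML210 1, 2 and 3 and rose (log2 0.62, SE 0.0883, adjusted p = 0.0087). UNKL, a zinc finger protein, rose by 1.03 and the sialyltransferase ST6GALNAC5 by 0.90 on the log2 scale. PRKCH, a protein kinase C, had the largest fall of the 34, from 2.29, 2.21 and 2.37 CPM in controls 1, 2 and 3 to 0.486, 0.562 and 0.311 CPM in ML210 1, 2 and 3 (log2 -2.34, SE 0.29, adjusted p = 0.00341). The long noncoding RNA LINC01116 (from 39.5, 48.9 and 49.8 CPM to 22.1, 23.3 and 24 CPM in the same order, adjusted p = 0.00109), the autophagy factor TP53INP2 (log2 -0.69, adjusted p = 0.00433) and the kinase DAPK1 (log2 -0.37, adjusted p = 0.00965) also fell. In all of these genes the 2 groups of libraries lay apart.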
